A study of Homo sapiens with 12 samples.

Results

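The 33 genes described here are MYC and 32 genes whose products build ribosomes in the nucleolus or work beside that machinery. They were taken by symbol from a list of names. The rule uses no measured value, but the list was drawn up with earlier results of these data known. Each symbol matched 1 Ensembl identifier among the 40649 genes counted. All 33 passed the filter on low counts, which kept 19268 genes. The 12 libraries were bulk RNA-seq of HK-2 cells, an established line of human renal tubular epithelial cells, with 4 libraries in each of 3 groups. The group YH carried the genotype Yap1 knockdown and received hydrogen peroxide, an oxidant, at 150 µM for 48 h. The group H2O2 carried the genotype ShNC, the control genotype of the labels, and received the same oxidant at the same dose and time. The group ShNC carried that control genotype and was untreated. Cells with the knockdown and without the oxidant were not analysed here, so the knockdown is seen only under H2O2. Whether replicates were separate cultures, and how many knockdown clones they came from, is not stated in the labels. P-values therefore reflect the scatter among these libraries alone, and that scatter could be technical.

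Ribosome production starts in the nucleolus, where RNA polymerase I copies the ribosomal DNA into a long precursor RNA. Small nucleolar ribonucleoproteins (snoRNPs) modify that precursor, a large particle called the small subunit processome shapes and cuts the part that becomes the small (40S) subunit, and a separate set of assembly factors builds the large (60S) subunit. The transcription factor MYC, which binds DNA as a dimer with MAX, is known for driving many of these genes when cells grow, and disturbed nucleoli can stabilise p53 through free ribosomal proteins that bind MDM2. In kidney tubules, injured epithelial cells that survive may divide again, a state in which ribosome demand is high, or may stop dividing.

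Libraries held 30789997 to 46582873 counts, of which the members together took 0.457% to 0.623%. Levels are CPM, a gene's count scaled to a common library total with edgeR's TMM factors. The limit that a count of 0 allows, 3 counts, was worth 0.0644 to 0.0974 CPM. YAP1, the target of the knockdown, had 131, 135, 111 and 136 CPM in YH replicates 1 to 4, 155, 151, 156 and 164 CPM in H2O2 and 136, 130.3, 140.5 and 124 CPM in ShNC. Its log2 difference was -0.29 ± 0.07 for YH minus H2O2 (SE; edgeR adjusted p = 0.00346), -0.05 ± 0.07 for YH minus ShNC (edgeR adjusted p = 0.636) and 0.24 ± 0.07 for H2O2 minus ShNC (edgeR adjusted p = 0.0104). YAP1 mRNA in the libraries labelled Yap1 knockdown was thus lower than in H2O2 but not separated from untreated cells, and YH below means the libraries so labelled. The libraries YH replicate 3 and ShNC replicate 4 stood apart. Over the tested genes, their deviations from their own group means had a correlation of 0.51. Other pairs of a YH and a ShNC library had -0.33 to 0.21, and pairs with an H2O2 library -0.07 to 0.09. What YH replicate 3 and ShNC replicate 4 share was not tested. Mitochondrially encoded genes took 11.3% and 13.9% of their counts, where the other 10 libraries had 4.54% to 5.64%. Of 19 kidney epithelial markers, 13 averaged at least 1 CPM, among them PAX8, KRT8 and EPCAM. The markers of differentiated proximal tubule LRP2, CUBN, ANPEP, AQP1 and SLC3A1 stayed below 0.5 CPM in every library, but others did not. GGT1 averaged 5.65 CPM in YH, 4.43 CPM in H2O2 and 3.67 CPM in ShNC. SLC34A1 averaged 1.61, 0.245 and 1.22 CPM, and SLC5A2 0.987, 1.08 and 0.734 CPM, in the same order. The epithelial markers summed to 1806 to 2019 CPM in YH, 2008 to 2074 CPM in H2O2 and 1793 to 1963 CPM in ShNC. The 6 endothelial markers summed to at most 0.737 CPM in any library. Of 7 leukocyte markers, PTPRC and CD3E were at or near 0 and 2 averaged at least 1 CPM. Their sum, mostly CSF1R, was 27.8 to 37.1 CPM in YH, 14.3 to 18.4 CPM in H2O2 and 21.7 to 24.3 CPM in ShNC. Of 7 fibroblast and pericyte markers, COL1A2 was at 0 in all 12 libraries and 4 averaged at least 1 CPM. Their sum, mostly LUM, was 143 to 172 CPM in YH, 236 to 255 CPM in H2O2 and 110 to 113 CPM in ShNC. The part of these marker levels in the results was not tested. In bulk samples, fewer cells of a type and less RNA per cell cannot be told apart.

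As a group, the 33 members stood lowest in H2O2, highest in YH and between these in ShNC. Against ShNC, H2O2 libraries had 13 members lower and 1 higher, and 19 were not called. Of all 19268 genes tested, 22.6% were called lower and 23.9% higher in that comparison. Against H2O2, YH libraries had 23 members higher and 3 lower, with 7 not called, where 22% of all genes were called higher and 21% lower. Against ShNC, YH libraries had 12 members higher and 1 lower, with 20 not called, where 17.4% of all genes were called higher and 15.1% lower. A gene was called when its Benjamini-Hochberg adjusted p over all tested genes, from edgeR's quasi-likelihood test, was under 0.05. The median log2 difference of the members was -0.14 for H2O2 minus ShNC, 0.35 for YH minus H2O2 and 0.13 for YH minus ShNC, whereas that of all tested genes was 0.00399, -0.00404 and 0.00166. Any 2 of these comparisons share the libraries of 1 group, so their counts are not independent of each other.

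Summed over the 33 members, the level was 5935, 6165, 5797 and 5918 CPM in YH replicates 1 to 4, 4412, 4444, 4694 and 4495 CPM in H2O2, and 5239, 5303, 5400 and 5057 CPM in ShNC. The 3 groups did not overlap in this sum. NPM1, NCL and MYC carry a large part of it, and without them the sum was 3217 to 3469 CPM in YH, 2630 to 2740 CPM in H2O2 and 2916 to 3192 CPM in ShNC. On a log2 scale, where each member counts alike, the median deviation from a gene's own mean over the 12 libraries was 0.10 to 0.26 in YH, -0.22 to -0.11 in H2O2 and -0.02 to 0.04 in ShNC. The lowest YH value was that of replicate 3 and the lowest ShNC value that of replicate 4, which are the libraries of high mitochondrial share. Without these 2 libraries, YH minus H2O2 had 27 members higher and 4 lower, YH minus ShNC had 19 higher and 5 lower, and H2O2 minus ShNC had 2 higher and 18 lower. The share of all genes called in that fit is not given here. The further lists below also gained calls in it, so the gain is not read as particular to the members. In YH minus ShNC the members then added were BOP1, BYSL, DDX10, DKC1, HEATR1, NPM1, UTP15 and WDR12 as higher and FBL, NME1, NOP56 and POLR1A as lower, while NOP16 was lost. In YH minus H2O2 they were BOP1, BYSL, NCL and UTP15 as higher and FBL as lower. In H2O2 minus ShNC they were WDR43 as higher and BYSL, DKC1, NCL, PES1 and RRP12 as lower.

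**Figure D1:**
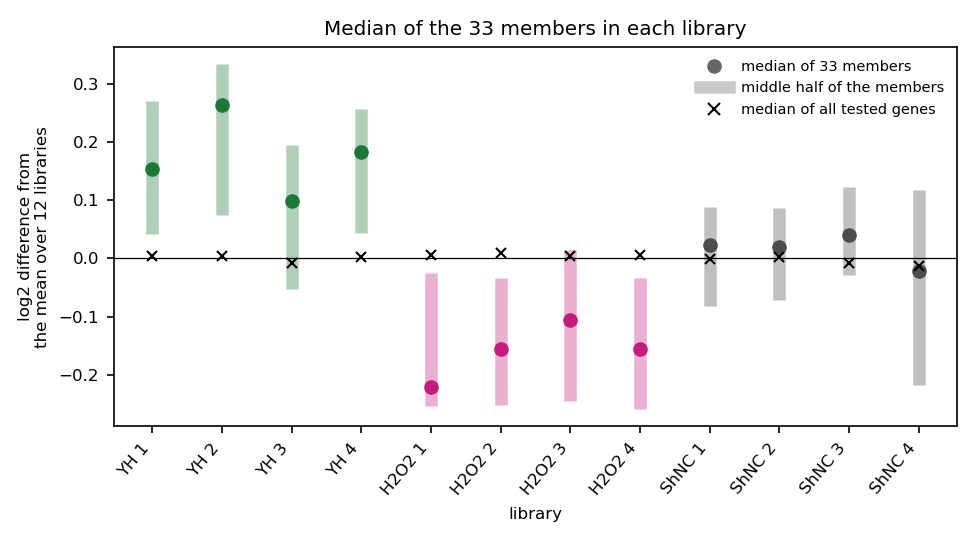
Median over the 33 members of the log2 difference from each gene's mean over 12 libraries (vertical axis, log2 units), for each library (horizontal axis, YH, H2O2, ShNC). Points are medians, bars the interquartile range of the members and crosses the median of all tested genes. The YH medians lie at 0.10 to 0.26, the H2O2 medians at -0.22 to -0.11 and the ShNC medians at -0.02 to 0.04.

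Genes that lie near each other on a chromosome moved together in parts of this series, so a shift was computed for each member as the median over the 50 nearest tested genes on its chromosome. It ranged over the members from -0.29 to 0.41 for YH minus H2O2, from -0.12 to 0.13 for YH minus ShNC and from -0.39 to 0.37 for H2O2 minus ShNC. With that shift taken out of the fit, 20 members were higher and 0 lower in YH minus H2O2, 10 higher and 0 lower in YH minus ShNC, and 0 higher and 15 lower in H2O2 minus ShNC. The share of all genes called in that fit is not given here, so these counts are not set against one. The result with the neighbours' shift removed is given below for each member whose call it changed or whose called value it moved by over 1.5 times.

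MYC had the largest estimated rise in YH of all members, against either other group, though NOP14 came within 1 SE of it in YH minus H2O2. Both ranks depended on YH replicate 3, the highest YH library for MYC and the lowest for NOP14 and RRP9. The level of MYC was 538, 575, 786 and 516 CPM in YH replicates 1 to 4, 300.5, 295, 338 and 314 CPM in H2O2 and 331, 320.0, 325 and 416 CPM in ShNC. Every YH library lay above every library of the other groups, and within YH replicate 3 was the highest, as replicate 4 was in ShNC. The log2 difference was 0.95 ± 0.12 for YH minus H2O2, a 1.94-fold level (edgeR adjusted p = 1.62e-05), and 0.80 ± 0.12 for YH minus ShNC, a 1.74-fold level (edgeR adjusted p = 0.000148). For H2O2 minus ShNC it was -0.16 ± 0.12 (edgeR adjusted p = 0.303, 95% interval -0.39 to 0.08), which did not pass the test. An exact two-sided permutation test of mean log2(CPM + 0.5) over the 70 assignments of 8 libraries gave differences of 0.93 and 0.78 for YH minus H2O2 and YH minus ShNC, each with p = 0.0286, the smallest it can give. The same exact permutation test gave p = 0.171 for H2O2 minus ShNC, with a difference of -0.15, which was -0.062 without ShNC replicate 4 and -0.068 with library size alone. Leaving out the 2 libraries of high mitochondrial share, the difference was 0.80 for YH minus H2O2. MYC lies on chromosome 8 with no overlapping gene in the annotation, and with its neighbours' shift removed it differed by 0.86 for YH minus H2O2 and 0.67 for YH minus ShNC.

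**Figure D2:**
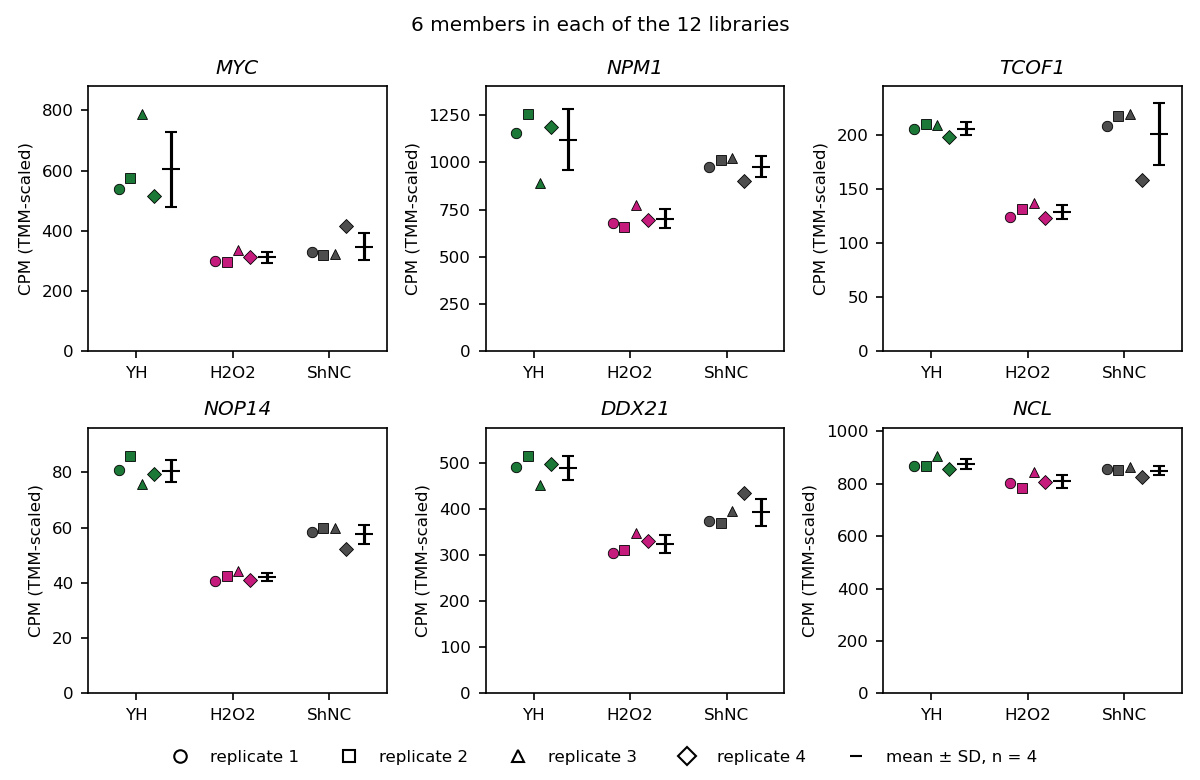
Level of 6 members in each library (vertical axes, TMM-scaled CPM from 0; horizontal axes, YH, H2O2 and ShNC). Symbols are libraries by replicate number, and the bars beside them the mean ± SD of 4. MYC, NOP14 and DDX21 are higher in every YH library than in every other library, NPM1 and TCOF1 are lowest in H2O2, and NCL spans 785 to 904 CPM over all 12 libraries.

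The members' promoters were read for the E-box, the 6 letters CACGTG, a sequence bound by the dimer of MYC and MAX. It reads the same on both strands. RefSeq windows of GRCh38.p14, from 250 bases before to 50 after a start site, were matched by symbol for 26 of the 33 members. No window was matched for MYC, BOP1, NOLC1, NOP58, RRP12, RRS1 and TCOF1. The stretches below run from 50 bases before the start to 24 after it, with the E-box in capitals. They show 7 members that were higher in YH than in ShNC, then UTP20 and FBL. UTP20 and FBL were called in no comparison over all 12 libraries with the neighbours' shift left in.
WDR43: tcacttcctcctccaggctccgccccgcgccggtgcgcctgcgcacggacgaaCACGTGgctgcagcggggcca
RRP9: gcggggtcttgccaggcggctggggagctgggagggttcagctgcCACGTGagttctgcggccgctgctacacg
GNL3: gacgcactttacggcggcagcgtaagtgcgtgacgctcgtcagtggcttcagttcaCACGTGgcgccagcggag
NOP14: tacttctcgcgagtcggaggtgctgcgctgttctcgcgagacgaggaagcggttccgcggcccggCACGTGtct
DDX21: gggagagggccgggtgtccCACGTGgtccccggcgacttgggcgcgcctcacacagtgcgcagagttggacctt
UTP4: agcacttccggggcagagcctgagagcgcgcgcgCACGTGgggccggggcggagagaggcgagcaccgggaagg
PES1: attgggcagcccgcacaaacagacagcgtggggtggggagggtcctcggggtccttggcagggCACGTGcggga
UTP20: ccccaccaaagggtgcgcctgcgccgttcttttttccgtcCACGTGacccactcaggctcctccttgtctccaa
FBL: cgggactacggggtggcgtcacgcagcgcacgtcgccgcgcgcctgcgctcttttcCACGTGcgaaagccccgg
These lie at chr2:28894617-28894690 (plus strand), chr3:51941881-51941954 (minus), chr3:52685982-52686055 (plus), chr4:2963383-2963456 (minus), chr10:68956597-68956670 (plus), chr16:69132599-69132672 (plus), chr22:30591887-30591960 (minus), chr12:101280055-101280128 (plus) and chr19:39846356-39846429 (minus), in the order printed and each read 5′ to 3′ on its gene's strand. Counted from 1 at the start site, with no position 0, the E-box began at position 4 in WDR43, -5 in RRP9, 7 in GNL3, 16 in NOP14, -31 in DDX21, -16 in UTP4, 14 in PES1, -10 in UTP20 and 7 in FBL.

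An E-box stood in the window of 14 of the 26 matched members (53.8%), against 12.1% of the 12478 tested genes with a window and 7.26% of all 35116 windows of 300 bases. Of the 12 members higher in YH than in ShNC, 9 had a window, and 7 of these held an E-box. Among the 17 other members with a window, 7 held one, namely BYSL, FBL, MYBBP1A, NAT10, NME1, NOP2 and UTP20. A second motif, CGCGAG or its reverse complement CTCGCG, no match of which can share a base with an E-box, stood in 10 of 26 members (38.5%), 30.4% of tested genes and 15.8% of all windows. Since fewer than 80% of the members had a window, a comparison of these shares is void, and the matches describe the letters only. The stretches of FBL and UTP20 hold the same 6 letters as those of WDR43 and DDX21. Whether these letters bear on the RNA level of any of these genes was not tested.

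Among the 3 subunits of RNA polymerase I, the enzyme that makes the ribosomal precursor, 2 were higher and 1 lower in YH than in H2O2. Of all tested genes, 22% were called higher and 21% lower there. POLR1B, a core catalytic subunit, had 56.2, 60.8, 54.4 and 57.5 CPM in YH, 42.4, 45.9, 49.9 and 48.2 CPM in H2O2 and 43.8, 48.8, 49.1 and 52.2 CPM in ShNC. All 4 YH values were the highest, and it rose by 0.30 ± 0.07 in YH minus H2O2 (edgeR adjusted p = 0.00333) and by 0.24 ± 0.07 in YH minus ShNC (edgeR adjusted p = 0.0179). The call against ShNC was lost without ShNC replicate 1 or YH replicate 2 (edgeR adjusted p of 0.0676 and 0.0586). On chromosome 2, its neighbours moved by -0.19 for YH minus H2O2 and 0.22 for H2O2 minus ShNC. With that shift removed, the differences were 0.49 and -0.28 (edgeR adjusted p = 5.92e-05 and 0.00543), both called. POLR1C, a subunit shared with RNA polymerase III, had 30.1, 29.96, 29.7 and 29.95 CPM in YH, 22.3, 25.1, 26.9 and 24.8 CPM in H2O2 and 27.7, 26.1, 29.2 and 29.4 CPM in ShNC. It rose in YH minus H2O2 by 0.27 ± 0.07 (edgeR adjusted p = 0.00557) and fell in H2O2 minus ShNC, at -0.18 ± 0.07 (edgeR adjusted p = 0.0456). That fall was lost in 9 of the 12 fits that left out 1 library (edgeR adjusted p up to 0.165) and kept in those without ShNC replicate 2, H2O2 replicate 3 or YH replicate 3. Without its neighbours' shift of 0.12, the rise was 0.16 (edgeR adjusted p = 0.0947). Other genes overlap 18.2% of POLR1C's exon bases. POLR1A, the largest subunit, went the other way, with 71.9, 70.3, 68.97 and 64.96 CPM in YH, 76.8, 83.4, 83.3 and 82.4 CPM in H2O2 and 77.1, 76.9, 83.1 and 68.2 CPM in ShNC. It was lower in YH than in H2O2, at -0.24 ± 0.07 (edgeR adjusted p = 0.00863). Its neighbours on chromosome 2 moved by -0.15, and without that shift the difference was -0.08 (edgeR adjusted p = 0.339).

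The 7 members grouped here as nucleolar organisers and chaperones include NME1, which was placed with them though it is not an assembly factor. Of these 7, 6 were lower in H2O2 than in ShNC and 6 were higher in YH than in H2O2, NME1 being in both counts. The shares of all tested genes called in these directions were 22.6% and 22%. NPM1, nucleophosmin, a histone and ribosome chaperone, had 1153, 1252, 890.0 and 1184 CPM in YH, 677, 657, 773 and 697 CPM in H2O2 and 976, 1012, 1021 and 899.9 CPM in ShNC. All H2O2 libraries were lowest. YH replicate 3 lay just below the ShNC libraries, and the other 3 YH libraries above them. The log2 difference was 0.68 ± 0.09 for YH minus H2O2 (edgeR adjusted p = 2.53e-05) and -0.48 ± 0.09 for H2O2 minus ShNC (edgeR adjusted p = 0.000498). For YH minus ShNC it was 0.20 ± 0.09 (edgeR adjusted p = 0.118). The annotation holds 45 pseudogenes of NPM1, and it is not known here how reads that fit several of these copies were counted.

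TCOF1, treacle, a scaffold that ties RNA polymerase I to precursor processing, had 206, 210.4, 209.8 and 198 CPM in YH, 125, 132, 137 and 123 CPM in H2O2 and 208, 218, 219 and 159 CPM in ShNC. H2O2 lay below both other groups in every library, with differences of 0.67 ± 0.09 for YH minus H2O2 (edgeR adjusted p = 1.35e-05) and -0.64 ± 0.09 for H2O2 minus ShNC (edgeR adjusted p = 1.77e-05). Without its neighbours' shift of 0.23, YH minus H2O2 was 0.44 (edgeR adjusted p = 0.000763). NOLC1, the treacle partner also known as Nopp140, had 302, 299.5, 311 and 303 CPM in YH, 236, 251, 235 and 233 CPM in H2O2 and 310.1, 307, 316 and 294 CPM in ShNC. It too was lowest in every H2O2 library, at 0.35 ± 0.05 for YH minus H2O2 (edgeR adjusted p = 5.03e-05) and -0.36 ± 0.05 for H2O2 minus ShNC (edgeR adjusted p = 2.71e-05). YH minus ShNC was -0.01 ± 0.05 for NOLC1, with a 95% interval of -0.11 to 0.09, and 0.04 ± 0.09 for TCOF1, with an interval of -0.13 to 0.20.

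NME1, a nucleoside diphosphate kinase and known MYC target rather than an assembly factor, showed the largest fall of all members in H2O2 minus ShNC. It had 32.5, 33.6, 46.1 and 33.3 CPM in YH, 20.98, 22.6, 21.9 and 20.6 CPM in H2O2 and 39.96, 39.1, 38.9 and 59.6 CPM in ShNC. The H2O2 libraries were lowest, while YH replicate 3 and ShNC replicate 4, both of high mitochondrial share, were the highest of their groups. Its difference was -1.05 ± 0.14 for H2O2 minus ShNC (edgeR adjusted p = 2.11e-05) and 0.76 ± 0.14 for YH minus H2O2 (edgeR adjusted p = 0.000494). For YH minus ShNC it was -0.29 ± 0.14 (edgeR adjusted p = 0.13), which passed the test without these 2 libraries at -0.26. Of its exon bases, 18.6% are shared with the read-through gene NME1-NME2, so counts may be split between them.

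GNL3, nucleostemin, a GTP-binding protein of the nucleolus, had 133, 138, 129 and 131 CPM in YH, 96.5, 97.7, 95.5 and 101 CPM in H2O2 and 113, 116, 118 and 125 CPM in ShNC. The groups did not overlap. It differed by 0.44 ± 0.05 for YH minus H2O2 (edgeR adjusted p = 7.43e-06), by 0.17 ± 0.05 for YH minus ShNC (edgeR adjusted p = 0.0252) and by -0.28 ± 0.05 for H2O2 minus ShNC (edgeR adjusted p = 0.000544). The small rise against ShNC was lost without any 1 of ShNC replicates 1 to 3 or YH replicates 1 and 2 (edgeR adjusted p up to 0.0833), and was 0.04 with the neighbours' shift removed (edgeR adjusted p = 0.565). MYBBP1A, a nucleolar protein that binds p53, had 138, 131, 131 and 133 CPM in YH, 98.8, 101, 96.9 and 97.7 CPM in H2O2 and 127, 134, 133 and 95.5 CPM in ShNC. ShNC replicate 4 lay below every H2O2 library, and the other ShNC libraries above them. The differences were 0.43 ± 0.09 for YH minus H2O2 (edgeR adjusted p = 0.000801) and -0.31 ± 0.09 for H2O2 minus ShNC (edgeR adjusted p = 0.00777). NCL, nucleolin, an abundant RNA-binding protein of the nucleolus, was called in no comparison, with 869, 869, 904 and 858 CPM in YH, 804, 785, 844 and 806 CPM in H2O2 and 858, 851, 862 and 824 CPM in ShNC. The 95% interval, before adjustment for the number of genes, was 0.01 to 0.21 for YH minus H2O2 and -0.17 to 0.03 for H2O2 minus ShNC. Genes around NCL on chromosome 2 moved by -0.17 and 0.19 in these comparisons, and with that shift removed NCL passed the test in both, at 0.29 and -0.26. NCL also passed the test in both without the 2 libraries of high mitochondrial share, at 0.10 and -0.09.

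DDX21, a helicase that joins RNA polymerase I activity to precursor processing, had 489, 513, 452 and 498 CPM in YH, 304, 311, 348 and 330.2 CPM in H2O2 and 374, 369, 394 and 434 CPM in ShNC. The 3 groups did not overlap, with YH highest and H2O2 lowest. It rose by 0.59 ± 0.07 in YH minus H2O2 (edgeR adjusted p = 4.15e-06) and by 0.31 ± 0.07 in YH minus ShNC (edgeR adjusted p = 0.00218), and was lower in H2O2 than in ShNC at -0.28 ± 0.07 (edgeR adjusted p = 0.003).

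The 4 core proteins of the snoRNPs did not move as one. NOP56, a core protein of the box C/D snoRNPs that guide methylation of ribosomal RNA, had 302, 285, 279 and 283 CPM in YH, 241, 242, 231 and 233 CPM in H2O2 and 307, 309.5, 319 and 266 CPM in ShNC. H2O2 was lowest in every library, with 0.28 ± 0.06 for YH minus H2O2 (edgeR adjusted p = 0.00165) and -0.34 ± 0.06 for H2O2 minus ShNC (edgeR adjusted p = 0.000246). Without its neighbours' shift, YH minus H2O2 was 0.18 (edgeR adjusted p = 0.0317). NOP58, its partner in the same particle, had 76.9, 77.4, 71.8 and 78.95 CPM in YH, 84.1, 84.4, 85.6 and 86.99 CPM in H2O2 and 86.8, 87.3, 81.9 and 85.8 CPM in ShNC. Every YH value was the lowest, and NOP58 was lower in YH by small amounts, at -0.16 ± 0.05 against H2O2 (edgeR adjusted p = 0.0246) and -0.16 ± 0.05 against ShNC (edgeR adjusted p = 0.0291). Around NOP58 on chromosome 2, genes moved by -0.29 for YH minus H2O2 and 0.26 for H2O2 minus ShNC. With that shift removed, NOP58 turned to 0.13 for YH minus H2O2 (edgeR adjusted p = 0.0625) and passed the test for H2O2 minus ShNC at -0.27 (edgeR adjusted p = 0.000817). The call against ShNC was then lost, at -0.13 (edgeR adjusted p = 0.0673). It was also lost without replicate 1 or 2 of either ShNC or YH (edgeR adjusted p up to 0.0745), and that against H2O2 without H2O2 replicate 4 (edgeR adjusted p = 0.0682). Introns of NOP58 hold 3 snoRNA genes.

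FBL, fibrillarin, the methyltransferase of the box C/D particle, had 199, 194, 181 and 203 CPM in YH, 222, 231, 219 and 227 CPM in H2O2 and 221, 227, 225 and 159 CPM in ShNC. Every YH library lay below every H2O2 library, and ShNC replicate 4 was the lowest of all, but FBL passed no test, with -0.21 ± 0.09 for YH minus H2O2 (edgeR adjusted p = 0.0769). Without the 2 libraries of high mitochondrial share, it was called lower in YH than in H2O2, at -0.18, and than in ShNC, at -0.19. With only YH and H2O2 in the fit, FBL was also called lower in YH, at -0.21 (edgeR adjusted p = 0.0037). Neighbouring genes on chromosome 19 moved by 0.37 for H2O2 minus ShNC, and without that shift its difference there turned from 0.11 to -0.26 (edgeR adjusted p = 0.0303). DKC1, dyskerin, the pseudouridine synthase of the box H/ACA particle, had 197, 214, 159 and 202 CPM in YH, 164, 162, 166 and 162 CPM in H2O2 and 176, 185, 192 and 152 CPM in ShNC. YH replicate 3 lay below the H2O2 libraries and the other 3 YH libraries above them. DKC1 rose by 0.24 ± 0.09 in YH minus H2O2 (edgeR adjusted p = 0.0376), a call that was lost with the neighbours' small shift of 0.05 removed (edgeR adjusted p = 0.107). It was also lost without any 1 of the 4 H2O2 libraries or of YH replicates 1, 2 and 4 (edgeR adjusted p up to 0.122).

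Of the 11 members that act in the small subunit processome or in 40S assembly, 8 were higher in YH than in H2O2, 5 were higher in YH than in ShNC, and 3 were lower in H2O2 than in ShNC. The shares of all tested genes were 22%, 17.4% and 22.6% in the same order, so the last count was near its share. NOP14, a processome protein, had 80.8, 85.7, 75.7 and 79.5 CPM in YH, 40.7, 42.5, 44.2 and 41.1 CPM in H2O2 and 58.4, 59.7, 59.8 and 52.4 CPM in ShNC. The 3 groups were far apart, with differences of 0.93 ± 0.06 for YH minus H2O2 (edgeR adjusted p = 1.83e-08), 0.48 ± 0.06 for YH minus ShNC (edgeR adjusted p = 3.29e-05) and -0.45 ± 0.06 for H2O2 minus ShNC (edgeR adjusted p = 3.15e-05). Its neighbours on chromosome 4 moved by 0.41 for YH minus H2O2 and -0.39 for H2O2 minus ShNC. With the shift removed, the rise in YH minus H2O2 was 0.53 (edgeR adjusted p = 1.01e-05) and the difference for H2O2 minus ShNC was -0.06 (edgeR adjusted p = 0.487), no longer called. An antisense gene, NOP14-AS1, covers 17.1% of its exon bases, and whether the counting used strand is not known here.

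UTP4, WDR43 and RRP9, also of the processome, rose in YH against both other groups. UTP4, part of the subcomplex that binds the precursor first, had 139, 146, 158 and 136 CPM in YH, 95.96, 97.6, 104 and 96.6 CPM in H2O2 and 98.1, 105, 106 and 126 CPM in ShNC. All YH values were the highest, with 0.55 ± 0.08 for YH minus H2O2 (edgeR adjusted p = 2.53e-05) and 0.41 ± 0.08 for YH minus ShNC (edgeR adjusted p = 0.000619). WDR43, the human counterpart of yeast Utp5, had 119, 132, 122 and 124 CPM in YH, 102, 104, 109 and 107 CPM in H2O2 and 96.03, 92.8, 95.5 and 102 CPM in ShNC. Its groups were ordered YH, H2O2, ShNC without overlap, with 0.23 ± 0.06 for YH minus H2O2 (edgeR adjusted p = 0.00316) and 0.36 ± 0.06 for YH minus ShNC (edgeR adjusted p = 0.000139). With the neighbours' shift of -0.22 removed, YH minus H2O2 was 0.45 (edgeR adjusted p = 1.2e-05). RRP9, the protein that marks the U3 snoRNP, had 32.9, 33.4, 23.1 and 32.4 CPM in YH, 23.5, 23.99, 23.9 and 21.7 CPM in H2O2 and 21.1, 20.5, 22.6 and 13.2 CPM in ShNC. YH replicate 3 lay with the H2O2 libraries and ShNC replicate 4 far below its group. RRP9 rose by 0.66 ± 0.15 in YH minus ShNC (edgeR adjusted p = 0.00296) and by 0.39 ± 0.15 in YH minus H2O2 (edgeR adjusted p = 0.0429). The call against H2O2 was lost with the neighbours' small shift of 0.03 removed (edgeR adjusted p = 0.0638). It was also lost in 9 of the 12 fits that left out 1 library, and kept without ShNC replicate 3 or 4 or YH replicate 3 (edgeR adjusted p up to 0.108).

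RRP12, a factor of pre-40S export, had 79.7, 86.8, 69.997 and 78.995 CPM in YH, 54.5, 57.2, 51.9 and 55.3 CPM in H2O2 and 65.3, 67.4, 67.4 and 44.4 CPM in ShNC. Its YH libraries were the highest, at 0.53 ± 0.11 for YH minus H2O2 (edgeR adjusted p = 0.00123) and 0.37 ± 0.11 for YH minus ShNC (edgeR adjusted p = 0.0185). The value against ShNC was 0.23 without ShNC replicate 4, and its call was lost without YH replicate 2 (edgeR adjusted p = 0.0620). HEATR1, the counterpart of yeast Utp10, had 152, 166, 149 and 154 CPM in YH, 117, 118, 123 and 121 CPM in H2O2 and 139, 145, 151 and 154 CPM in ShNC. H2O2 was lowest in every library, at 0.37 ± 0.06 for YH minus H2O2 (edgeR adjusted p = 6.68e-05) and -0.29 ± 0.06 for H2O2 minus ShNC (edgeR adjusted p = 0.000469). Genes beside HEATR1 on chromosome 1 moved by 0.37 and -0.27 in these comparisons, and without that shift the differences were 0.00 and -0.03 (edgeR adjusted p = 0.995 and 0.739). Other genes, mainly LGALS8, cover 23.2% of the exon bases of HEATR1, so its values are uncertain.

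NAT10, the acetyltransferase of small-subunit ribosomal RNA, had 62.5, 66.9, 65.7 and 63.4 CPM in YH, 55.1, 56.03, 52.6 and 55.5 CPM in H2O2 and 66.1, 66.6, 67.4 and 67.6 CPM in ShNC. It was lowest in every H2O2 library, at 0.24 ± 0.05 for YH minus H2O2 (edgeR adjusted p = 0.00207) and -0.29 ± 0.05 for H2O2 minus ShNC (edgeR adjusted p = 0.00037). Without its neighbours' shift, YH minus H2O2 was 0.15 (edgeR adjusted p = 0.0324). DDX10, a helicase of this pathway, had 34.3 to 37.4 CPM in YH, 25.1 to 30.4 CPM in H2O2 and 27.9 to 37.8 CPM in ShNC, and rose by 0.41 ± 0.10 in YH minus H2O2 (edgeR adjusted p = 0.00295). BYSL, bystin, a pre-40S factor, was called in no comparison, with 51.7, 50.2, 36.3 and 52.6 CPM in YH, 36.7, 39.1, 36.9 and 37.5 CPM in H2O2 and 43.3, 40.5, 41.99 and 21.4 CPM in ShNC. YH replicate 3 and ShNC replicate 4 lay far below the rest of their groups, and without them BYSL was called higher in YH against both groups and lower in H2O2 than in ShNC, at -0.17 (edgeR adjusted p = 0.00227), where the value over all libraries was 0.03. With only YH and H2O2 in the fit, BYSL was called higher in YH, at 0.35 (edgeR adjusted p = 0.0144). UTP15 and UTP20, further processome components, passed no test over all 12 libraries. UTP15 had 23.7 to 26.2 CPM in YH, 23.3 to 24.2 CPM in H2O2 and 22.5 to 28.2 CPM in ShNC. UTP20 had 87.7 to 95.6 CPM in YH, 91.1 to 98.5 CPM in H2O2 and 88.3 to 103 CPM in ShNC. Without the 2 libraries of high mitochondrial share, UTP15 was called higher in YH than in H2O2, at 0.13 (edgeR adjusted p = 0.0468), and than in ShNC, at 0.16 (edgeR adjusted p = 0.0206). For YH minus H2O2 the 95% interval over all libraries was -0.06 to 0.25 for UTP15 and -0.18 to 0.07 for UTP20.

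The 6 members that act in 60S assembly gave 3 rises and 1 fall in YH minus H2O2, and 3 rises in YH minus ShNC. Of all tested genes, 22% rose and 21% fell in YH minus H2O2, and 17.4% rose in YH minus ShNC. PES1, BOP1 and WDR12 form the PeBoW complex, which is needed for the large subunit's ribosomal RNA, and their RNAs did not move alike. PES1 had 86.03, 89.99, 83.7 and 83.2 CPM in YH, 62.02, 60.7, 68.9 and 63.7 CPM in H2O2 and 74.5, 72.7, 73.5 and 57.8 CPM in ShNC, with every YH library the highest. It rose by 0.43 ± 0.08 in YH minus H2O2 (edgeR adjusted p = 0.000409) and by 0.30 ± 0.08 in YH minus ShNC (edgeR adjusted p = 0.00801). WDR12 had 56.4, 57.9, 53.01 and 58.7 CPM in YH, 60.4, 63.6, 67.7 and 63.7 CPM in H2O2 and 50.5, 54.4, 52.3 and 56.9 CPM in ShNC, with H2O2 highest. It was the member that rose in H2O2 minus ShNC, by 0.25 ± 0.06 (edgeR adjusted p = 0.00337), and it was lower in YH than in H2O2 at -0.18 ± 0.06 (edgeR adjusted p = 0.033). The surrounding genes on chromosome 2 moved by 0.26 and -0.28 in these comparisons, and with the shift removed the differences were -0.00206 and 0.10, neither called. The fall in YH minus H2O2 was also lost without any 1 of H2O2 replicates 2 to 4 or YH replicates 1 and 3 (edgeR adjusted p up to 0.0976). BOP1 passed no test, with 72.5, 71.96, 50.4 and 70.4 CPM in YH, 58.2, 62.8, 62.2 and 59.7 CPM in H2O2 and 60.3, 61.1, 57.8 and 32.5 CPM in ShNC. YH replicate 3 and ShNC replicate 4 lay apart from their groups, and without them BOP1 was called higher in YH than in H2O2, at 0.24, and than in ShNC, at 0.25.

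NOP16, a nucleolar protein of the large-subunit pathway, had 22.7, 23.4, 25.8 and 22.6 CPM in YH, 16.5, 15.3, 16.5 and 14.2 CPM in H2O2 and 20.03, 19.8, 21.4 and 19.4 CPM in ShNC. The groups did not overlap, with 0.60 ± 0.08 for YH minus H2O2 (edgeR adjusted p = 1.69e-05), 0.23 ± 0.08 for YH minus ShNC (edgeR adjusted p = 0.033) and -0.37 ± 0.08 for H2O2 minus ShNC (edgeR adjusted p = 0.00119). The rise against ShNC was lost without ShNC replicate 1, 2 or 4 or YH replicate 2 or 3 (edgeR adjusted p up to 0.0832). With the neighbours' shift removed, the differences in YH were 0.36 against H2O2 and 0.10 against ShNC (edgeR adjusted p = 0.00167 and 0.371). The genes ARL10 and HIGD2A share 20% of its exon bases. RRS1, which helps bring the 5S particle into the large subunit, had 36.4, 41.4, 30.3 and 37.9 CPM in YH, 29.1, 28.7, 30.6 and 28.6 CPM in H2O2 and 28.4, 27.3, 29.1 and 19.5 CPM in ShNC. YH replicate 3 lay inside the H2O2 range and ShNC replicate 4 below its group. RRS1 rose by 0.49 ± 0.12 in YH minus ShNC (edgeR adjusted p = 0.00465) and by 0.32 ± 0.12 in YH minus H2O2 (edgeR adjusted p = 0.0362). The call against H2O2 was lost without any 1 H2O2 library or YH replicate 1, 2 or 4 (edgeR adjusted p up to 0.116). The gene AC009879.2 covers 11.4% of the exon bases of RRS1. NOP2, a methyltransferase of large-subunit ribosomal RNA, was counted at 1.26 to 1.56 CPM in YH, 1.05 to 2.31 CPM in H2O2 and 1.24 to 1.52 CPM in ShNC. In the annotation, 54.4% of its exon bases lie in AC006064.6, so reads may have been left uncounted or split. Its 95% interval for YH minus H2O2, -0.53 to 0.34, was the widest among the members.

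**Figure D3:**
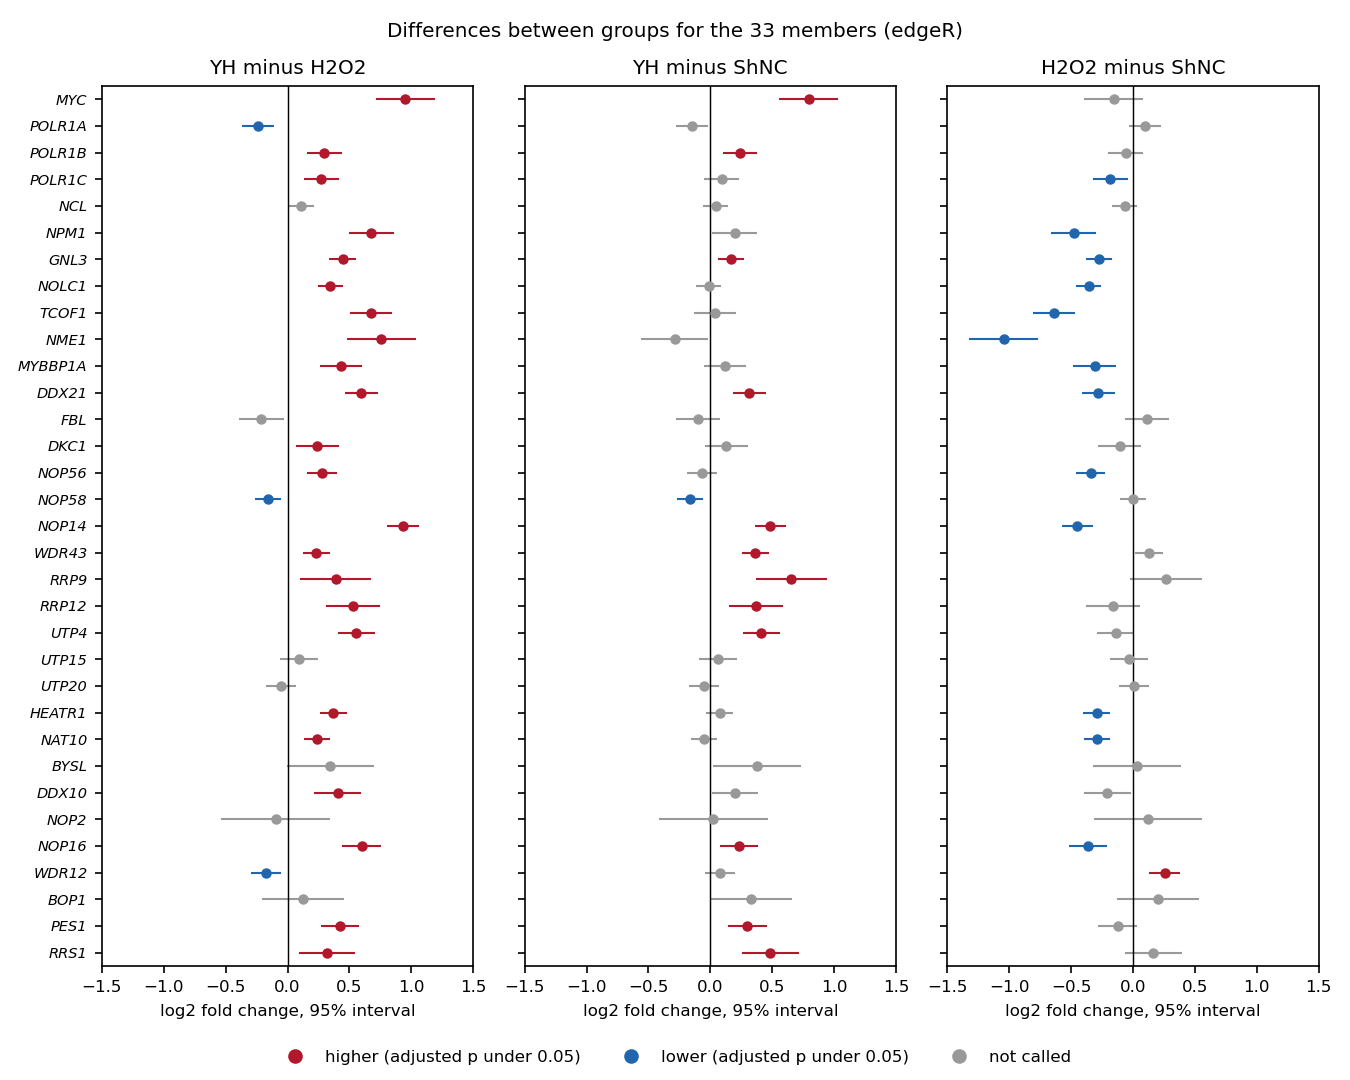
Log2 fold changes of the 33 members (horizontal axes) for YH minus H2O2, YH minus ShNC and H2O2 minus ShNC, with points at edgeR's estimates and bars for 95% intervals; genes run down the page by role. In YH minus H2O2, 23 members are red (higher) and 3 blue (lower); in YH minus ShNC 12 and 1; in H2O2 minus ShNC 1 and 13.

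**Figure D4:**
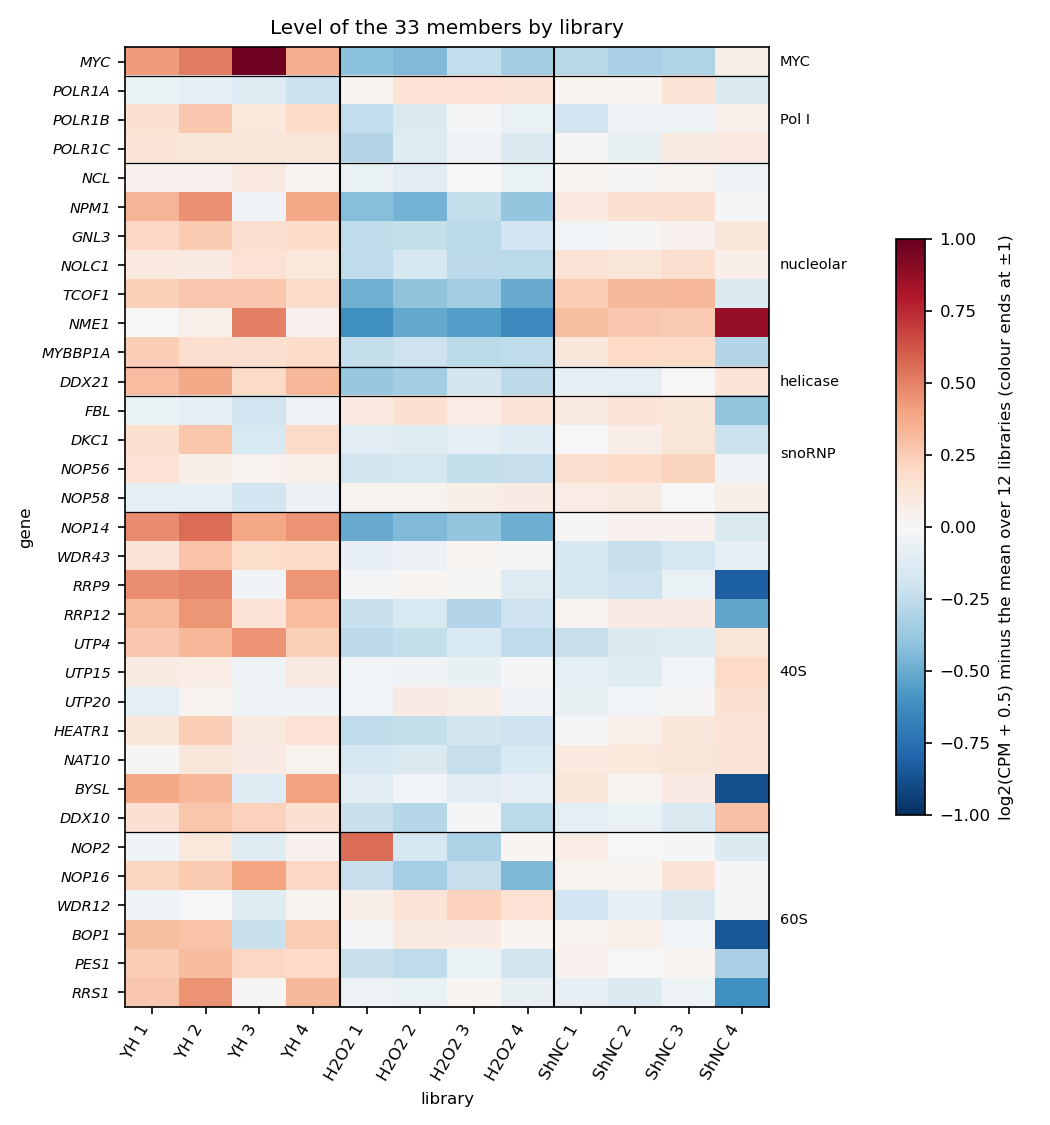
Level of each member (rows, by role) in each library (columns, YH, H2O2, ShNC) as log2(CPM + 0.5) minus the gene's mean over 12 libraries, with red for higher and blue for lower and the colour ending at 1 in either direction. YH replicate 3 and ShNC replicate 4 depart from their groups in RRP9, BYSL, BOP1 and NME1.

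Levels between genes were set side by side only per kilobase of annotated exon (RPKM). The length used was all annotated exon bases of a gene, 3001 for MYC, 6929 for NCL, 2173 for FBL and 5020 for DDX21. It may exceed the length of the transcripts present, to a different degree in each gene. The order of genes therefore depends on these lengths, and other lengths were not tested. NPM1 stood first in every group, at 293 ± 41.5 RPKM in YH, 183 ± 13.2 RPKM in H2O2 and 255 ± 14.4 RPKM in ShNC (mean ± SD, n = 4 per group). MYC came next in YH at 201 ± 41.3 RPKM, above NCL at 126 ± 2.90 RPKM. NCL stood above MYC in H2O2, at 117 ± 3.56 against 104 ± 6.30 RPKM, and in ShNC, at 122 ± 2.46 against 116 ± 15.2 RPKM. In ShNC that gap between NCL and MYC was smaller than the SD of MYC. FBL had 89.2 ± 4.35 RPKM in YH, 103 ± 2.54 RPKM in H2O2 and 95.7 ± 15.1 RPKM in ShNC. DDX21 had 97.3 ± 5.15 RPKM in YH, 64.4 ± 4.00 RPKM in H2O2 and 78.2 ± 5.87 RPKM in ShNC. On these lengths, DDX21 stood above FBL in YH and below it in H2O2 and ShNC. In each group the gap was larger than the SD of either gene, which covers the scatter among libraries and not the choice of length. At the low end, UTP15 and DDX10 stayed between 3.10 and 4.11 RPKM as group means, and NOP2 between 0.296 and 0.320 RPKM.

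A further 10 lists, 298 genes in all, were counted the same way around the members. Their counts are read against the shares of all genes given above, and their medians of log2 differences against those of all genes. Those shares belong to the fit of all 12 libraries with the neighbours' shift left in. Counts from the other fits are given without such a share. In the list of the small subunit processome and 40S assembly, 23 of 49 genes rose and none fell in YH minus ShNC (median 0.23), where 17.4% of all genes rose and 15.1% fell. In that of 60S assembly, 25 of 58 tested genes rose and none fell (median 0.24). In YH minus H2O2, the small subunit list had 18 rises and 6 falls (median 0.11) and the 60S list 25 rises and 4 falls (median 0.19). In H2O2 minus ShNC, the small subunit list had 17 rises and 5 falls (median 0.14) and the 60S list 12 rises and 10 falls (median 0.04). With the neighbours' shift removed, the 60S list had 5 rises and 5 falls in H2O2 minus ShNC, and 24 rises and 1 fall in YH minus ShNC. Leaving out YH replicate 3 and ShNC replicate 4, the small subunit list had 33 rises and no fall in YH minus ShNC, and the 60S list 39 rises and 5 falls. The 60S list then had 16 rises and 21 falls in H2O2 minus ShNC, so its balance turned.

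RCL1, a factor of 40S assembly, averaged 29.7 ± 1.95 CPM in YH and 16.3 ± 0.771 CPM in ShNC. It rose by 0.87 ± 0.07 (edgeR adjusted p = 2.74e-07). NOB1, the nuclease that makes the end of the small-subunit RNA, averaged 78.2 ± 7.39 CPM in YH and 54.5 ± 3.94 CPM in H2O2, a rise of 0.52 ± 0.09 (edgeR adjusted p = 0.000134). NMD3, an export adaptor of the large subunit, averaged 125 ± 27.8 CPM in YH and 67.1 ± 5.55 CPM in H2O2. It rose by 0.90 ± 0.14 (edgeR adjusted p = 9.06e-05). RRP1B, a nucleolar protein of the large-subunit pathway on chromosome 21, averaged 94.8 ± 3.01 CPM in YH, 132 ± 2.35 CPM in H2O2 and 87.4 ± 2.04 CPM in ShNC. Its rise of 0.59 ± 0.05 in H2O2 minus ShNC was 0.04 with the neighbours' shift removed (edgeR adjusted p = 0.54).

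Among 22 other genes of RNA polymerase I and its factors, 7 rose and 2 fell in YH minus H2O2 (median 0.05), 4 rose and 4 fell in YH minus ShNC (median 0.01), and 1 rose and 4 fell in H2O2 minus ShNC (median -0.07). UBTF, the factor that opens ribosomal DNA, averaged 98.8 ± 3.26 CPM in YH and 124 ± 1.71 CPM in H2O2. It fell in YH, at -0.32 ± 0.08 (edgeR adjusted p = 0.0038), opposite in sign to POLR1B. TAF1D, a subunit of the selectivity factor of the polymerase, averaged 146 ± 9.14 CPM in YH and 98.8 ± 11.4 CPM in ShNC, a rise of 0.57 ± 0.08 (edgeR adjusted p = 5.25e-05). Of 13 snoRNP proteins and assembly factors, 7 rose and 1 fell in YH minus H2O2 (median 0.36), 3 rose and 1 fell in YH minus ShNC (median 0.06), and 6 fell and none rose in H2O2 minus ShNC (median -0.10). NOP10, a core protein of the box H/ACA particle with DKC1, averaged 57.2 ± 15.1 CPM in YH, 34.2 ± 2.84 CPM in H2O2 and 58.1 ± 13.8 CPM in ShNC. It fell in H2O2 minus ShNC, at -0.77 ± 0.17 (edgeR adjusted p = 0.00247).

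Of 22 host genes that carry snoRNAs in their introns, 15 rose and none fell in YH minus H2O2 (median 0.44), 11 rose and 2 fell in YH minus ShNC (median 0.26), and 4 rose and 5 fell in H2O2 minus ShNC (median -0.06). GAS5 averaged 644 ± 114 CPM in YH and 391 ± 6.38 CPM in H2O2, a rise of 0.72 ± 0.10 (edgeR adjusted p = 2.99e-05). With the neighbours' shift removed, it was 0.43 (edgeR adjusted p = 0.00283). SNHG3 averaged 75.2 ± 6.68 CPM in YH, 61.3 ± 3.73 CPM in H2O2 and 131 ± 18.2 CPM in ShNC. It fell against ShNC in both, at -0.81 ± 0.09 in YH (edgeR adjusted p = 7.16e-06) and -1.10 ± 0.09 in H2O2 (edgeR adjusted p = 9.27e-08). Of 19 genes of the RNA exosome and related nucleases, 7 rose and none fell in YH minus H2O2 (median 0.12), 4 rose and 1 fell in YH minus ShNC (median 0.07), and 3 rose and 5 fell in H2O2 minus ShNC (median -0.11). MTREX, the exosome's helicase, averaged 107 ± 11.8 CPM in YH, 60.6 ± 2.30 CPM in H2O2 and 95.3 ± 2.12 CPM in ShNC. Its differences were 0.82 ± 0.07 for YH minus H2O2 (edgeR adjusted p = 2.79e-07) and -0.65 ± 0.07 for H2O2 minus ShNC (edgeR adjusted p = 2.36e-06).

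MYC's own network of partners, antagonists and turnover factors moved in both directions. Of 24 tested genes, 7 rose and 3 fell in YH minus H2O2 (median -0.00489), 9 rose and 5 fell in YH minus ShNC (median 0.06), and 9 rose and 7 fell in H2O2 minus ShNC (median 0.01). PIM1, a kinase that stabilises MYC, averaged 191 ± 5.49 CPM in YH, 137 ± 15.2 CPM in H2O2 and 78.4 ± 5.23 CPM in ShNC. It rose by 1.28 ± 0.08 in YH minus ShNC (edgeR adjusted p = 1.09e-08) and by 0.81 ± 0.08 in H2O2 minus ShNC (edgeR adjusted p = 3.34e-07). USP36, a nucleolar deubiquitinase of MYC, averaged 155 ± 12.99 CPM in YH and 93.9 ± 1.97 CPM in ShNC, a rise of 0.73 ± 0.06 (edgeR adjusted p = 6.05e-07). MXI1, which competes with MYC for MAX, averaged 70.6 ± 2.59 CPM in YH and 44.9 ± 2.89 CPM in H2O2, a rise of 0.65 ± 0.06 (edgeR adjusted p = 9.36e-07). SKP2, part of a ubiquitin ligase that acts on MYC, averaged 27.3 ± 0.89 CPM in YH and 47.3 ± 6.25 CPM in ShNC. It fell, at -0.79 ± 0.08 (edgeR adjusted p = 2.79e-06).

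Of 49 MYC targets outside ribosome biogenesis, 19 rose and 7 fell in YH minus H2O2 (median 0.15), 11 rose and 14 fell in YH minus ShNC (median 0.01), and 8 rose and 22 fell in H2O2 minus ShNC (median -0.18). ODC1, the polyamine enzyme, averaged 212 ± 15.8 CPM in YH, 168 ± 10.2 CPM in H2O2 and 109 ± 3.96 CPM in ShNC. It rose in YH minus ShNC by 0.96 ± 0.07 (edgeR adjusted p = 4.13e-08). SLC7A5, which with SLC3A2 imports large amino acids, averaged 161 ± 7.64 CPM in YH and 83.1 ± 3.32 CPM in H2O2, a rise of 0.96 ± 0.07 (edgeR adjusted p = 2.27e-08). LDHA, lactate dehydrogenase, averaged 798 ± 34.1 CPM in YH, 482 ± 10.7 CPM in H2O2 and 1707 ± 319 CPM in ShNC. It fell against ShNC in both, at -1.10 ± 0.10 in YH (edgeR adjusted p = 5.65e-07) and -1.82 ± 0.10 in H2O2 (edgeR adjusted p = 6.51e-10).

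Of 28 tested genes of mTORC1 growth control, 12 rose and 5 fell in YH minus H2O2 (median 0.12), 5 rose and 2 fell in YH minus ShNC (median 0.07), and 8 rose and 10 fell in H2O2 minus ShNC (median -0.07). RRAGD, a Rag GTPase that recruits mTORC1 to lysosomes, averaged 109.9 ± 4.71 CPM in YH, 34.95 ± 2.03 CPM in H2O2 and 58.2 ± 3.44 CPM in ShNC. Its differences were 1.65 ± 0.07 for YH minus H2O2 (edgeR adjusted p = 4.87e-11) and -0.74 ± 0.07 for H2O2 minus ShNC (edgeR adjusted p = 1.87e-07). Of 11 genes that link nucleolar stress to p53, 5 rose and 2 fell in YH minus H2O2 (median 0.03), 5 rose and none fell in YH minus ShNC (median 0.22), and 3 rose and 2 fell in H2O2 minus ShNC (median -0.02). MDM2, the ligase of p53, averaged 68.8 ± 5.57 CPM in YH, 72.8 ± 4.50 CPM in H2O2 and 56.1 ± 2.05 CPM in ShNC. It rose against ShNC in both, by 0.29 ± 0.07 in YH (edgeR adjusted p = 0.00429) and by 0.38 ± 0.07 in H2O2 (edgeR adjusted p = 0.000365). With YH replicate 3 and ShNC replicate 4 left out, each of the 10 lists had more calls in each comparison, and the balance of several lists turned or was lost. In YH minus H2O2, MYC's network then had 8 rises and 9 falls and the snoRNA hosts 18 rises and 1 fall. In YH minus ShNC, mTORC1 growth control had 6 rises and 7 falls, RNA polymerase I genes 7 and 9, snoRNP proteins 4 and 4, MYC's network 10 and 10 and the nucleolar stress genes 7 and 3. In H2O2 minus ShNC, the nucleolar stress genes had 3 rises and 4 falls, MYC's network 10 and 10 and the snoRNP proteins 3 and 8. With the neighbours' shift removed, MYC's network had 6 rises and 6 falls in YH minus H2O2, the MYC targets 13 and 12 in YH minus ShNC, and in H2O2 minus ShNC the nucleolar stress genes had 1 and 2 and the snoRNP proteins 1 and 5.

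**Figure D5:**
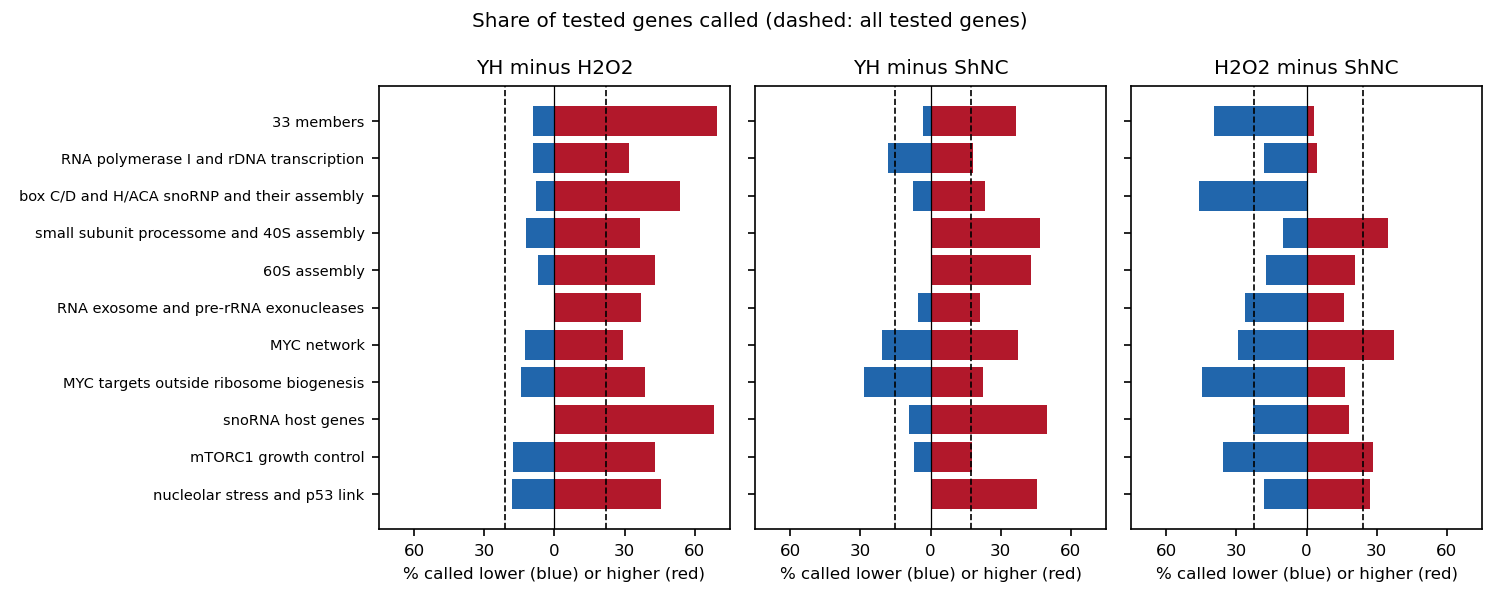
Percentage of tested genes called higher (red, to the right) or lower (blue, to the left) among the 33 members and the 10 further lists, for YH minus H2O2, YH minus ShNC and H2O2 minus ShNC; dashed lines give the share of all tested genes. In YH minus ShNC the lists of the small subunit, of 60S assembly and of nucleolar stress have no blue bar.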

How the data were processed

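Gene expression was measured by RNA-seq of HK-2 cells in 12 libraries, made by oligo(dT) selection and sequenced as paired ends on one of 2 instrument types that no label ties to a library, per the labels' protocols. The samples are labelled as the cell line, although the text on RNA extraction mentions kidney tissue. The authors deposited 1 table per library with unscaled read counts for each gene, and replicates were not pooled. HISAT2, featureCounts, Subread, DESeq2 and the GRCh38 (hg38) build are named, per the submitters' processing notes; neither versions nor annotation is given in these sources, nor are the use of strand and the treatment of multiply mapped reads. No row of the tables lacked a gene identifier.

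Counts were tested with edgeR 4.0.16 under R 4.3.3: filterByExpr by group left 19268 genes, libraries were scaled by TMM, and the quasi-likelihood fit, run with robust=TRUE, took 12 libraries and a mean for each group (common dispersion 0.0163, 9 residual degrees of freedom). P-values were adjusted by Benjamini and Hochberg over all tested genes, with calls under 0.05. Log2 fold changes carry their SE and CPM their SD over 4 libraries. Floors of 3 counts cover counting error only. Counts of replicate libraries differed by a chi-square per degree of freedom of 2.85 or more, so each was taken as 1 replicate. Pairs with ShNC replicate 4 or YH replicate 3 had 95.8 to 159, and the other pairs at most 6.39. Such values show scatter beyond counting error and not that the cultures were separate. The scripts were tested on simulated counts. Same-numbered libraries did not deviate together in every pair, so the numbers were not taken as pairs.

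Positions, exon lengths and overlaps came from GENCODE release 29 of GRCh38, and promoters from RefSeq. The members and lists were chosen with earlier results of these data known. All 33 members are named; from each further list, a rule allowed at most 2 called genes per direction and comparison, taken by fold among those averaging at least 5 CPM, and a subset of these is described. Of 337 listed genes outside the members, markers included, 336 were matched. Alternatives were DESeq2 1.42.0 and its size factors, library size alone, no filter, a replicate block, only the 2 groups compared, each library left out, both libraries of high mitochondrial share left out, mitochondrially encoded genes left out, the shift of 50 neighbouring genes removed, and a test against a 1.2-fold change.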

Additional observations from a re-analysis of the deposited data

Results flagged for a closer look

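In 15 of the 99 sets of 4 libraries (33 members in 3 groups), 1 library lay apart from the other 3 by more than Dixon's 95% limit for 4 values; chance gives about 1 in 20. Of these, 8 were in ShNC replicate 4 and 5 in YH replicate 3, the libraries with 13.9% and 11.3% of counts on mitochondrially encoded genes. The part of that share in these values was not tested.

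YH replicate 3 was low for BOP1 at 50.4 CPM (70.4 to 72.5 in the other YH libraries), RRP9 at 23.1 CPM (32.4 to 33.4), UTP15 at 23.7 CPM (25.9 to 26.2) and BYSL at 36.3 CPM (50.2 to 52.6), and high for NME1 at 46.1 CPM (32.5 to 33.6). ShNC replicate 4 was high for MYC at 416 CPM (320.0 to 331 in the other ShNC libraries), DDX10 at 37.8 CPM (27.9 to 29.4) and NME1 at 59.6 CPM (38.9 to 39.96). It was low for FBL at 159 CPM (221 to 227), BOP1 at 32.5 CPM (57.8 to 61.1), PES1 at 57.8 CPM (72.7 to 74.5), RRP12 at 44.4 CPM (65.3 to 67.4) and BYSL at 21.4 CPM (40.5 to 43.3). In H2O2, replicate 1 was low for POLR1A at 76.8 CPM (82.4 to 83.4) and replicate 2 was high for NOLC1 at 251 CPM (233 to 236).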

How the results depend on the processing

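Members called numbered 14 for H2O2 minus ShNC, 26 for YH minus H2O2 and 13 for YH minus ShNC. A test against a 1.2-fold change left 5, 13 and 3. Without both libraries of high mitochondrial share, 24 were called for YH minus ShNC. The share of all genes called under the alternative settings of this section is not given here. Leaving out 1 library at a time gave 13 to 16, 21 to 29 and 8 to 16, the 8 without YH replicate 2, and member medians of -0.17 to -0.11, 0.30 to 0.39 and 0.12 to 0.18. Of the calls, 13 of 14, 21 of 26 and 8 of 13 were kept in all 12 of these fits; those lost were POLR1C, then DKC1, NOP58, WDR12, RRS1 and RRP9, then NOP58, NOP16, RRP12, POLR1B and GNL3. With library size alone the medians for H2O2 minus ShNC and YH minus H2O2 were -0.054 and 0.28, against -0.14 and 0.35 with TMM. Among single members, calls near the threshold were lost with no filter on low counts (POLR1C in H2O2 minus ShNC; NOP58, WDR12 and RRP9 in YH minus H2O2; NOP58, NOP16 and GNL3 in YH minus ShNC), with library size alone (POLR1C and MYBBP1A; DKC1, RRP9 and RRS1; NOP58 and RRP12, in the same order) and with only the 2 groups compared (POLR1C; NOP58, NOP16, GNL3 and RRP12 in YH minus ShNC). With only the 2 groups compared, FBL at -0.21 and BYSL at 0.35 were gained in YH minus H2O2, giving 28 calls there. The replicate block gave 13, 23 and 13 calls. Since same-numbered libraries did not deviate together in every pair, the numbers are not read as pairs.

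With the neighbours' shift removed, WDR12 turned to -0.0021 and FBL to -0.26 in H2O2 minus ShNC, and NOP58 to 0.13 and WDR12 to 0.10 in YH minus H2O2. BYSL turned to -0.17 in H2O2 minus ShNC without both libraries of high mitochondrial share. The cause of these changes was not tested, beyond what the settings themselves take out. MYC kept its direction and its call under every setting run. DESeq2's test called 14, 27 and 13 members. NOP2 had 1.05 to 2.31 CPM, so its values are the least precise of the members.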
